A study of Saccharomyces cerevisiae with 4 samples.

Results

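The histidine synthesis genes of Saccharomyces cerevisiae, HIS1 to HIS7, were followed on 4 two-channel arrays that set RNA of an abf1-1 mutant against RNA of wild type cells. The members were the probes that the platform annotation maps to these genes. Each of the 7 genes had 1 probe, 7 of 6226 probes in all, and each was measured on all 4 arrays. Channel 1 held total RNA of the abf1-1 strain and channel 2 that of wild type. abf1-1 is a temperature-sensitive allele of ABF1, whose product, Abf1, is a DNA-binding protein that yeast needs to live and that acts at many promoters, at replication origins and at silencers. Both strains had been grown at 30 °C in YPAD, a rich medium with added adenine, to an OD600 between 1.0 and 1.2. An equal volume of YPAD at 42 °C was then added, and cells were harvested after 45 min at 36 °C. Mutant and wild type thus share the temperature shift, and a response to heat that is equal in both strains does not appear in the ratio. Other markers or mutations of the strains, their mating type and the culture behind each RNA extract are not stated by the labels.

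Histidine is built from ATP and phosphoribosyl pyrophosphate (PRPP) in a chain of reactions that is encoded by these 7 genes. His1 opens the pathway and is inhibited by histidine, His4 carries out several of the reactions, and the imidazole ring is closed by His7, which releases AICAR, an intermediate of purine synthesis. In yeast the HIS genes belong to the general amino acid control, in which starvation for any of many amino acids raises translation of the activator Gcn4. HIS4 and HIS7 are also activated by Bas1 with Pho2 (also called Bas2), which tie them to the supply of adenine. The HIS4 promoter is known for a site of the general regulatory factor Rap1, and the HIS7 promoter for a site of Abf1 itself.

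Each value is a log ratio within an array. The values are taken as log2, since they have both signs and lie between -4.30 and 2.67, but neither the labels nor the table state the base or which strain is the numerator. Signs are therefore given as deposited, and no gene is called higher or lower in the mutant. After each array was centred on its median, 6189 features (genes, and probes without a gene name) were tested together with limma, and a feature with an adjusted p below 0.05 is named called. Of these features 200 were called, or 3.23%, with 1.86% negative and 1.37% positive. ABF1 itself was called with a mean of 1.62 ± 0.43 (SD, n = 4), a level that bears little on the labels because abf1-1 is no deletion.

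The arrays did not behave as 4 like replicates. Across probes, Pearson's r was 0.742 between arrays 1 and 3 and 0.864 between arrays 2 and 4, while the other 4 pairs of arrays lay between -0.221 and 0.05. Nothing in the labels, such as a batch or a swap of dyes, parts them in this way. Limma takes the 4 arrays as independent. The labels do not tie them to separate cultures, so its p-values reflect the spread among 4 hybridisations and may hold technical spread alone. With array 2 left out, limma's count of 200 was down to 22, which still held PRO3 and LEU2 of the genes named below, and with any other array left out it was 0. At an unadjusted p below 0.05 these fits still held between 752 and 1066 features. With RNA of whole cultures, a change in every cell and a change in a share of the cells cannot be told apart.

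None of the 7 histidine genes was called, beside 3.23% of all features, a share too low for 0 of 7 to set these genes apart. Their mean log2 ratios ran from -0.54 for HIS6 to 0.11 for HIS2, with a median of -0.21 against 0.02 over all features. HIS6, HIS7 and HIS1 were negative on all 4 arrays, 3 of 7 genes, while 16.4% of all features were. None of the 7 was positive on all 4, while 14.7% of all features were. Means were negative for 5 of the 7 genes and for 47.5% of all features. Limma's unadjusted p was below 0.05 with a negative mean for 2 of the 7, HIS6 and HIS1, and for 11.1% of all features, and with a positive mean for 0 of the 7 and for 9.71%. On each of the 4 arrays 5 of the 7 genes were negative, though not the same 5, beside 3091 to 3099 of all 6189 features. These counts include HIS2 at -0.01 on array 2 and HIS5 at -0.02 on array 3. The median of the 7 was -0.26, -0.20, -0.24 and -0.11 on arrays 1 to 4. The smallest mean among the 200 called features was 0.55 in size, and HIS6, at 0.54 in size, came closest to it. In a fit that adds the pair of arrays (1 with 3, 2 with 4) as a term and takes only the spread within pairs as error, limma called HIS6, HIS1 and HIS7, all negative, 3 of 7 genes against 16% of all features (32.7% with both signs). Were arrays 2 and 4 to run the other way, the mean would be 0.06 for HIS6, 0.05 for HIS1 and -0.25 for HIS7.

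**Figure D1:**
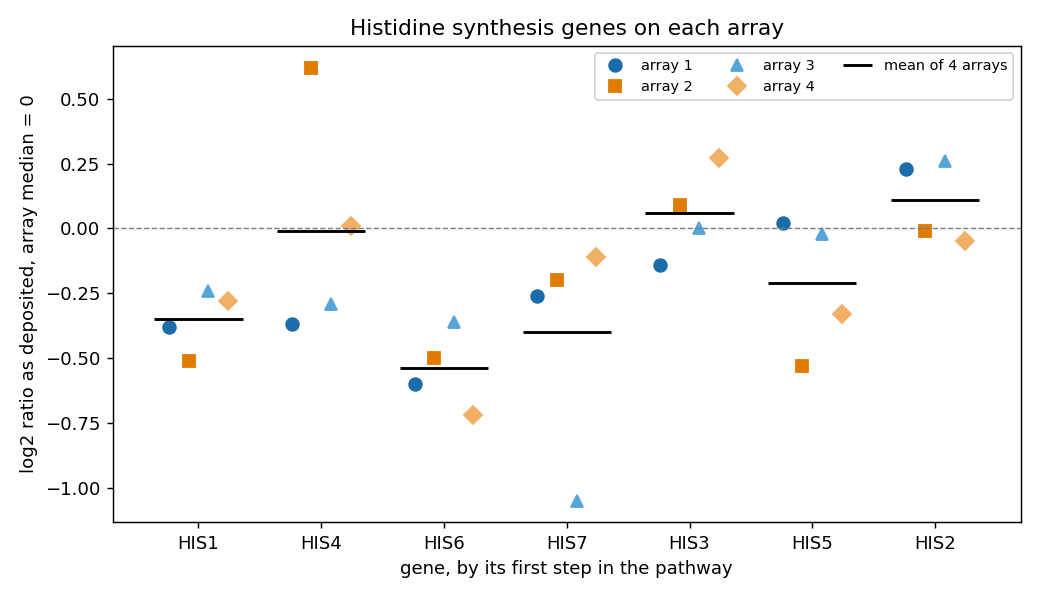
Log2 ratios of the 7 histidine genes (y axis, signs as deposited, array median at 0) on arrays 1 to 4 (points), in the order of their first step in the pathway (x axis), with the mean of the 4 arrays as a bar. HIS6 and HIS1 lie below 0 on every array, HIS4 spreads from -0.37 to 0.62, and the point of HIS7 at -1.05 is array 3.

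HIS1 (YER055C) encodes ATP phosphoribosyltransferase, the enzyme that commits ATP and PRPP to the pathway. Its log2 ratio was -0.38, -0.51, -0.24 and -0.28 on arrays 1 to 4. All 4 values were negative and lay close together, with the smallest SD among the 7 genes. The mean was -0.35 ± 0.12 (SD, n = 4), with a 95% interval from -0.61 to -0.10 in the limma fit and an adjusted p of 0.139.

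HIS4 (YCL030C) encodes a protein with 3 activities, which follow HIS1 in the pathway and also form histidine in its final step. On arrays 1 to 4 the log2 ratio was -0.37, 0.62, -0.29 and 0.01. Arrays 1 and 3 were negative, array 2 was clearly positive and array 4 lay near 0, which gave the largest SD of the 7 genes. The mean was -0.01 ± 0.45 (SD, n = 4), the interval ran from -0.48 to 0.46, and limma's adjusted p was 0.988. The mean of HIS4 lies near the value of array 4 and far from the other 3. It turned positive without array 1 (0.11) or array 3 (0.09), and was -0.22 without array 2.

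HIS6 (YIL020C) encodes an isomerase that prepares the substrate of the HIS7 product. Its log2 ratio was -0.60, -0.50, -0.36 and -0.72 on arrays 1 to 4. Every array was negative, and the 2 arrays of each correlated pair did not sit together. The mean of -0.54 ± 0.15 (SD, n = 4) was the largest of the 7 in size, a 1.46-fold difference if the base is 2, and its interval from -0.82 to -0.27 left out 0. Limma's adjusted p was 0.0662, so HIS6 missed the threshold. By mean ratio it stood at place 232 from the lowest among 5539 named genes.

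HIS7 (YBR248C) encodes imidazole glycerol phosphate synthase, the enzyme that makes the imidazole ring and AICAR. Arrays 1 to 4 gave log2 ratios of -0.26, -0.20, -1.05 and -0.11. Arrays 1, 2 and 4 were slightly negative, and array 3 alone lay far below them. The mean was -0.40 ± 0.43 (SD, n = 4) with an interval from -0.86 to 0.05 and a limma adjusted p of 0.285. Without array 3 it was -0.19 (limma adjusted p 0.488), a much smaller size than over the 4 arrays. HIS7 is thus negative on each array, but the size of its mean rests on 1 of them.

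HIS3 (YOR202W) encodes imidazole glycerol phosphate dehydratase, the enzyme after HIS7, and is widely used as a selection marker in yeast. Its log2 ratio was -0.14, 0.09, 0.00 and 0.27 on arrays 1 to 4. The values lay on both sides of 0, and the mean was 0.06 ± 0.17 (SD, n = 4) with an interval from -0.22 to 0.33 (limma adjusted p 0.827). Without array 4 the mean was -0.02.

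HIS5 (YIL116W) encodes histidinol phosphate aminotransferase. Arrays 1 to 4 gave log2 ratios of 0.02, -0.53, -0.02 and -0.33. Arrays 1 and 3 lay at 0, and arrays 2 and 4 were negative. The mean was -0.21 ± 0.26 (SD, n = 4), with an interval from -0.55 to 0.12 (limma adjusted p 0.429). Without array 2 the mean was -0.11.

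HIS2 (YFR025C) encodes histidinol phosphate phosphatase, which acts after HIS5. Its log2 ratio was 0.23, -0.01, 0.26 and -0.05 on arrays 1 to 4. Arrays 1 and 3 were positive, and arrays 2 and 4 lay near 0. The mean was 0.11 ± 0.16 (SD, n = 4), with an interval from -0.17 to 0.38 (limma adjusted p 0.631), and it lay between 0.06 and 0.16 with 1 array left out. HIS2 and HIS5 were thus higher on arrays 1 and 3 than on 2 and 4, and HIS3, HIS4 and HIS7 were higher on arrays 2 and 4, HIS7 narrowly so against array 1. This is the line along which the arrays divided across all probes, while HIS1 and HIS6 overlapped between the pairs. Whether the division of the arrays has a part in these values was not tested.

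Ordered by mean, the genes were HIS6, HIS7, HIS1, HIS5, HIS4, HIS3 and HIS2. No neighbours in this order differed beyond their spread, since each of the 6 steps was smaller than the SD of the difference over the arrays. Of the 21 pairs of genes, 8 had the same order on all 4 arrays. The pairs share genes and so are not separate observations, and the share among pairs of all features was not taken. The widest difference was HIS2 above HIS6, by 0.65 ± 0.14 (SD, n = 4), with HIS2 higher on every array. HIS2 was also above HIS1 on all 4, by 0.46 ± 0.16, and above HIS5, by 0.32 ± 0.14. The products of HIS5 and HIS2 act on consecutive intermediates. An exact test on 4 arrays cannot give a two-sided p below 0.125, and none was made for these pairs.

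**Figure D2:**
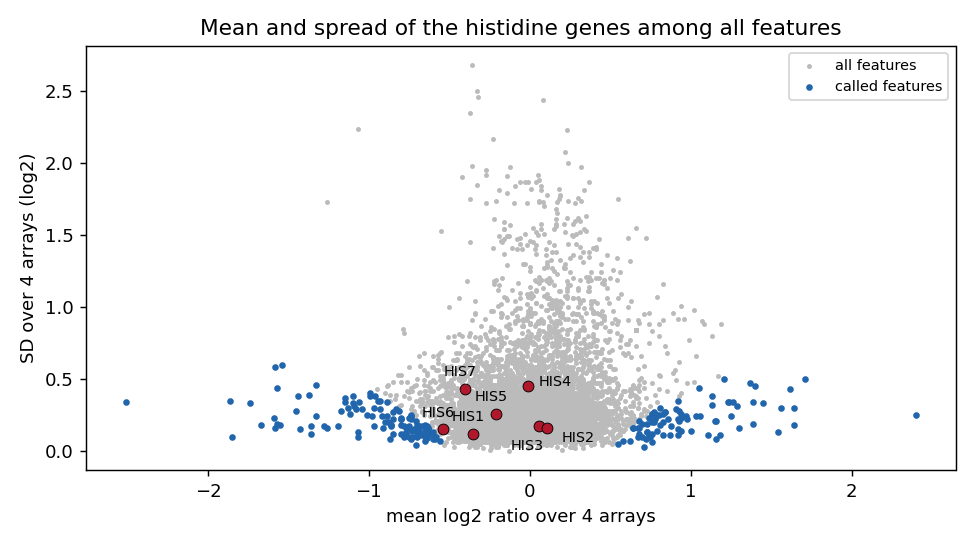
Mean log2 ratio over 4 arrays (x axis) against the SD over the same arrays (y axis) for all 6189 features (grey), the 200 called features (blue) and the 7 histidine genes (red, named). The histidine genes lie inside the cloud of features that were not called, with HIS6 nearest to the called features on the negative side.

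The gene nearest to HIS6 over the 4 arrays, by Euclidean distance between log2 ratios, was SIS2 at a distance of 0.12, followed by MXR1 (0.18) and SPL2 (0.19). SIS2, which encodes an inhibitory subunit of the phosphatase Ppz1, had -0.66, -0.58, -0.42 and -0.72 on arrays 1 to 4. It was called at -0.60 ± 0.13 (SD, n = 4; limma adjusted p 0.0494), just below the threshold that HIS6 missed. MXR1, for a methionine sulfoxide reductase, and SPL2, a gene of phosphate regulation, had means of -0.51 and -0.48 and were not called. All were picked for their likeness to HIS6 on these same arrays, so their values, and the call of SIS2, add no evidence about HIS6.

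Each histidine gene was then set beside the protein-coding gene directly upstream of it, found from gene order in the RefSeq table of assembly R64. Of the 7 neighbours 2 were called, ULI1 positive and ARO4 negative, beside 1.37% and 1.86% of all features, and neither call held with any 1 array left out. HIS7 lies downstream of ARO4 (YBR249C) on the same strand. ARO4, which encodes an enzyme that opens aromatic amino acid synthesis, had -0.46, -1.0, -0.65 and -0.86 on arrays 1 to 4 and a mean of -0.74 ± 0.24 (SD, n = 4; limma adjusted p 0.0468). Both genes were negative on every array. The order between them was not constant, with HIS7 above ARO4 on 3 arrays and below it on array 3.

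HIS6 shares its upstream region with FAF1 (YIL019W), a gene of small ribosomal subunit assembly that runs the other way. FAF1 had -0.14, -0.34, -0.31 and -0.93 on arrays 1 to 4, with a mean of -0.43 ± 0.34 (SD, n = 4; limma adjusted p 0.208). This pair too was negative throughout, and HIS6 minus FAF1 was -0.12 ± 0.28. HIS4 lies downstream of BIK1 (YCL029C), a gene for a microtubule-associated protein, on the same strand. BIK1 had -0.65, 0.96, -1.0 and 0.35, the same sign as HIS4 on each array, though HIS4 was only 0.01 on array 4. Neither gene was called. These signs part the arrays as they divided across all probes, and whether that division has a part here was not tested.

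HIS2, HIS5 and HIS1 were below their neighbours on all 4 arrays. HIS2 lies downstream of ULI1 (YFR026C), with a transfer RNA gene between them. ULI1 had 1.08, 1.62, 1.11 and 1.74 on arrays 1 to 4, all above the values of HIS2, and was called at 1.39 ± 0.34 (SD, n = 4; limma adjusted p 0.0254). HIS2 minus ULI1 was -1.28 ± 0.50. HIS5 shares its upstream region with PRM5 (YIL117C), a pheromone-regulated gene, which had 0.90, 0.01, 0.80 and 0.06 and a mean of 0.44 ± 0.47 (limma adjusted p 0.271). HIS5 was below PRM5 on all 4 arrays, by 0.66 on average, although both were lower on arrays 2 and 4 than on 1 and 3. HIS1 was below FCY2 (YER056C), for a cytosine and purine permease, on all 4 arrays as well, with a difference of -0.56 ± 0.35. HIS3 and MRM1 (YOR201C), which face away from each other, were both near 0, MRM1 at -0.03 ± 0.08.

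**Figure D3:**
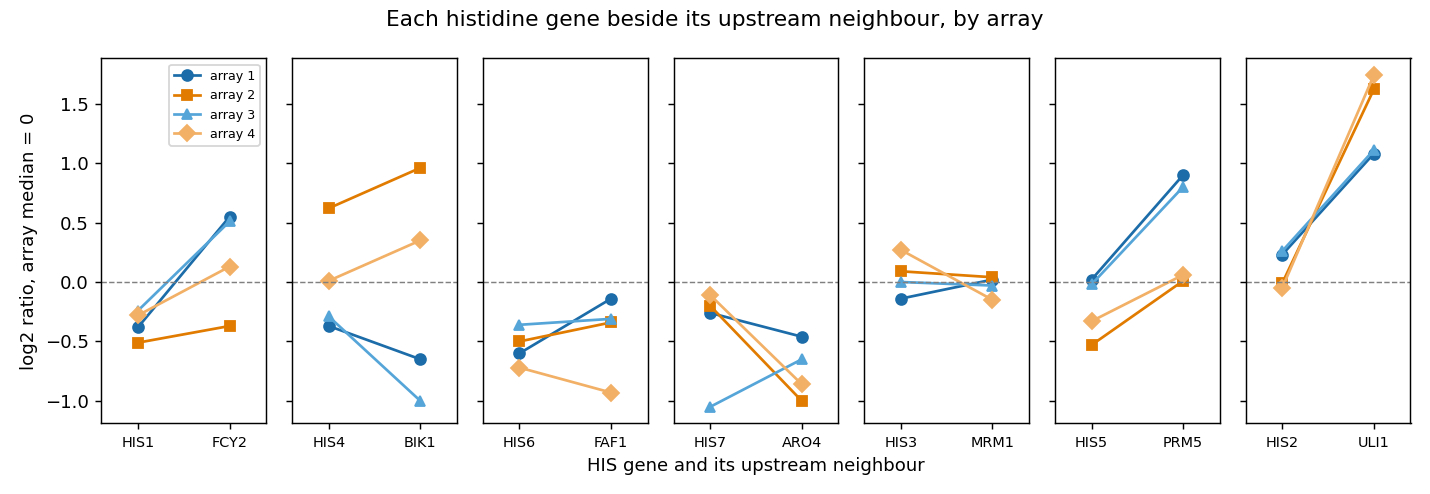
Log2 ratios (y axis, array median at 0) of each histidine gene (left in each panel) and of its upstream neighbour (right), joined by array. HIS6 with FAF1 and HIS7 with ARO4 are negative on all 4 arrays. HIS4 and BIK1 have the same sign on each array, with HIS4 near 0 on array 4, along the line that divides the arrays across all probes. ULI1 lies above 1 on every array while HIS2 stays between -0.05 and 0.26.

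Among 9 genes for regulators of the pathway, ABF1 was called positive and the other 8 were not called, beside 1.37% of all features called positive. GCN4 had 0.35, -0.45, 0.50 and -0.34 on arrays 1 to 4, and a mean of 0.01 ± 0.48 (SD, n = 4). Gcn4 is controlled mainly by translation, so its transcript is no measure of its activity. BAS1 had -0.48, 1.89, -1.21 and 0.32, and PHO2 had -0.39, 1.15, -0.37 and 0.97. HIS4, which Bas1 and Pho2 activate, was negative on arrays 1 and 3 and positive on array 2 as these regulators were. On array 4 HIS4 lay near 0, at 0.01, and HIS7 was negative on all 4 arrays. Arrays 1 and 3 against 2 and 4 is also the line along which the arrays divided across all probes. The part of that division in these values was not tested. RAP1 was negative on all 4 arrays, with a mean of -0.49 ± 0.25 (limma adjusted p 0.117). GCN2, the kinase that senses uncharged transfer RNA, had a mean of 0.00 ± 0.88, its partners GCN1 and GCN20 had 0.09 ± 0.42 and 0.00 ± 0.35, and GCN3, a subunit of the initiation factor eIF2B, had -0.19 ± 0.15.

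Of 3 genes for uptake and charging, GAP1 was called with a positive ratio, beside 1.37% of all features. This call held neither with quantile normalization nor with any 1 array left out. GAP1, the general amino acid permease, had 0.74, 0.49, 0.87 and 0.64 on arrays 1 to 4 and a mean of 0.68 ± 0.16 (SD, n = 4; limma adjusted p 0.0418). HIP1, the high-affinity histidine permease, had 0.51, -0.35, 0.36 and 0.00, with a mean of 0.13 ± 0.38. HTS1, for histidyl-tRNA synthetase, had 0.14, -0.95, -0.05 and -0.55, with a mean of -0.35 ± 0.50. Neither of these was called, and both were lower on arrays 2 and 4.

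None of the 5 genes for PRPP synthetase subunits was called by limma, and 1 had an unadjusted p below 0.05, as 20.8% of all features did. PRS1 was negative on every array, at -0.31 ± 0.19 (SD, n = 4), with a limma adjusted p of 0.220. PRS2, PRS3 and PRS5 had means of 0.11 ± 0.44, -0.23 ± 0.46 and -0.05 ± 0.21. PRS4 had -1.35, 1.94, -1.30 and 1.44 on arrays 1 to 4, with opposite signs in the correlated pairs of arrays and a mean of 0.18 ± 1.75. No other gene of these lists spread as far.

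Of 4 genes that handle AICAR or supply one-carbon units limma called none, and 1 had an unadjusted p below 0.05, beside the same 20.8% of all features. ADE3, for a tetrahydrofolate enzyme whose mutants need histidine, was negative on all 4 arrays at -0.51, -0.55, -0.29 and -0.43. Its mean was -0.45 ± 0.12 (SD, n = 4), with a limma adjusted p of 0.0905. ADE16 and ADE17, the paralogs that use AICAR, had opposite signs in the mean, 0.36 ± 0.33 and -0.20 ± 0.25, and ADE13, whose product makes AICAR in purine synthesis, had -0.05 ± 0.50.

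In other pathways of amino acid synthesis, 65 of 66 listed genes were measured and 6 were called, all negative, against 1.86% of all features. Of the 65, 51 had a negative mean (47.5% of all features did) and 27 were negative on all 4 arrays (16.4% of all features). Positive on all 4 were 3, beside 14.7% of all features. On arrays 1 to 4, 38, 53, 40 and 51 of the 65 were negative, beside 3091 to 3099 of all 6189 features. Whether the division of the arrays has a part in these counts was not tested. The median was -0.23, beside -0.21 for the 7 histidine genes and 0.02 for all features. PRO3, of proline synthesis, had -2.51 ± 0.34 (SD, n = 4), ARG7, of arginine synthesis, -1.33 ± 0.24, and TRP3, of tryptophan synthesis, -1.26 ± 0.16. ARO3 and ARO4 had -1.13 ± 0.30 and -0.74 ± 0.24, and ILV6, of branched-chain synthesis, -0.65 ± 0.18. Limma's adjusted p of the 6 lay between 0.0104 and 0.0494. The most negative histidine gene, HIS6 at -0.54, lay short of the smallest of these.

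Of 6 other genes used as selection markers in yeast, LEU2 alone was called, beside 1.37% of all features called positive. It had 1.18 ± 0.11 (SD, n = 4; limma adjusted p 0.0115). HIS3 was at 0.06, and URA3 (-0.04 ± 0.39), TRP1 (0.15 ± 0.15), LYS2 (-0.15 ± 0.62) and MET17 (-0.12 ± 0.33) were not called either. ADE2 was positive on all 4 arrays at 0.35 ± 0.20, with a limma adjusted p of 0.184. Whether the marker alleles of the strains have a part in these ratios was not tested.

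**Figure D4:**
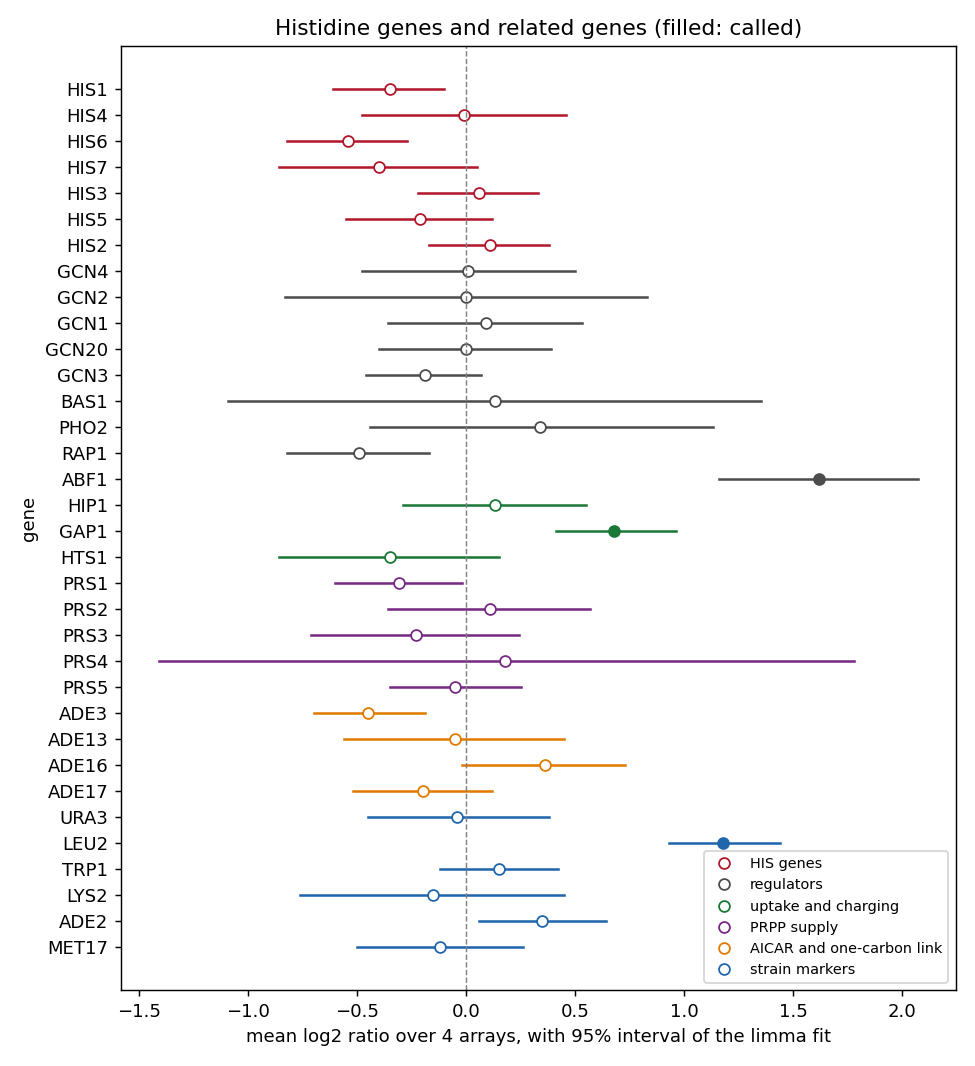
Mean log2 ratio over 4 arrays (points) with the 95% interval of the limma fit (lines) for the histidine genes and 5 lists of related genes, filled where called. The intervals of HIS1, HIS6, RAP1, PRS1, ADE3 and ADE2 leave out 0 without a call, and ABF1, GAP1 and LEU2 are the called genes shown.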

How the data were processed

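The series holds 4 arrays of 1 group, numbered as in the labels. The authors deposited a log ratio for each probe on each array, read here as log2. No label or header gives the base, the numerator, the dyes, the background correction or the normalization. The table had 6226 probes, 0 missing values and 0 columns without a sample, and column medians were -0.01, 0.03, -0.03 and 0.02. Spot brightness was not used here, and precision is set by the number of arrays.

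The platform annotation gave 5576 probes 1 gene, 0 several and 650 none. Symbols and gene order came from RefSeq R64. Arrays were centred on their median, and probes of a gene were averaged. No filter on low values was applied. Ratios were tested against 0 with lmFit and eBayes of limma 3.58.1 in R 4.3.3 (intercept only, two-sided, Benjamini-Hochberg over all 6189 features), in a script tested on simulated data. The simulated arrays were drawn independently, so that test does not cover arrays that correlate in pairs. Tables and plots used Python 3.11.15, pandas 2.3.3 and matplotlib 3.10.9.

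The rule named the 7 genes, ABF1, each upstream neighbour, all members of 5 related lists, up to 6 called members of other amino acid synthesis, and the 3 genes nearest to HIS6. Members and lists were chosen with earlier results of these data known, the lists from textbook knowledge. A planned search of promoters for motifs was not run, and sequences were not analysed here. The 16 other settings changed centring, spread, quantile normalization, eBayes options, array weights, probe handling or thresholds, left out each array, added a term for the array pairs, or turned signs.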

Additional observations from a re-analysis of the deposited data

Results flagged for a closer look

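HIS7 stood out for 1 array among 4. Its log2 ratio of -1.05 on array 3 lay apart from -0.26, -0.20 and -0.11 on the others, with a gap to the nearest of them that made up 0.836 of the whole range, above Dixon's critical value for 4 samples. Chance flags about 1 in 20 groups, and 7 genes were examined. Over all features 2.86% were flagged in the same way. No cause was examined.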

How the results depend on the processing

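The count of 0 called histidine genes held under 14 of 16 other settings. Several of these called few features anywhere: 0 without array 1, 3 or 4, 3 without moderation and 2 below 0.01. A count of 0 of 7 genes could hardly differ there, so it says little. With the adjusted p set below 0.1 the count of histidine genes was 1 of 7 (HIS6, -0.54), beside 441 of all 6189 features. With a term for arrays 1 and 3 against 2 and 4, which leaves only the spread within these pairs as error, it was 3: HIS1 (-0.35, limma adjusted p 0.0166), HIS6 (-0.54, 0.00397) and HIS7 (-0.40, 0.0453). The pairs come from the correlations between arrays and not from the labels. That fit called 2021 features in all, or 32.7%. The median of the 7 genes stayed between -0.29 and -0.18 with an array left out, and was 0.05 with the signs of arrays 2 and 4 turned. Turned signs gave 0.05 for HIS1, -0.12 for HIS3, 0.21 for HIS5 and 0.06 for HIS6, and 27 of 42 other named genes changed sign. With an array left out HIS3 lay between -0.02 and 0.12 and HIS4 between -0.22 and 0.11. Across the 15 settings other than turned signs, HIS6 kept its sign, between -0.61 and -0.49 (limma adjusted p between 0.00397 and 0.346), as did HIS1, between -0.39 and -0.30. Several of these settings could not move the means: the thresholds, the eBayes options, the probe handling and the pair term leave them as they are.

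The 200 called features became 98 with quantile normalization, 3 without moderation, 302 with turned signs, 2 at an adjusted p below 0.01, 441 below 0.1, and between 0 and 22 with an array left out. Of the neighbours 1 was called with quantile normalization or turned signs and 4 with the pair term, which called 32.7% of all features. ULI1 (1.39) and ARO4 (-0.74) were not called without moderation or below 0.01, nor with an array left out (1.27 to 1.49 and -0.84 to -0.66), and ARO4 was not with quantile normalization (-0.78). The pair term called PRM5 (0.44) and FAF1 (-0.43). Turned signs gave -0.29 for ULI1, 0.19 for ARO4, 0.20 for FAF1 and -0.74 for BIK1, which was called. They gave -0.14 for ABF1, -1.51 for PRS4 (called), 0.20 for ARG7, 0.15 for ILV6, 0.02 for TRP3, 0.22 for ARO3, 0.29 for PRO3 and 0.06 for SIS2.

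Without moderation and below 0.01, 0 members of the lists of regulators, uptake and charging, other amino acid synthesis and strain markers were called. With an array left out the count was 0 for the first pair of these lists and between 0 and 1 for the others. The pair term called 3 regulators, 2 genes of uptake and charging, 1 of PRPP supply, 1 of the AICAR list, 33 of other amino acid synthesis and 2 strain markers, beside 32.7% of all features. Turned signs called 1 regulator, GCN2 (-0.73) in place of ABF1, 1 gene of PRPP supply and 0 of uptake and charging, other amino acid synthesis and strain markers. Quantile normalization called 0 of uptake and charging. The looser threshold called 1 of the AICAR list and 10 of other amino acid synthesis, beside 441 of all 6189 features. No cause of these shifts was tested beyond the construction of each setting. Each array already sets mutant RNA against wild type RNA. The 4 arrays form 1 group, and the labels give no further pairing.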
